A study of Mus musculus with 8 samples.

Results

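Mitochondrial respiratory complex I takes electrons from NADH, passes them along iron-sulfur clusters to ubiquinone and pumps protons across the inner membrane. It has an L shape, with a matrix arm that holds the redox centres and a membrane arm that pumps. A set of conserved core subunits does the chemistry, a shell of accessory subunits surrounds them, and assembly factors help to build the complex without staying in it. The oocyte holds a very large stock of mitochondria and depends on their respiration of pyruvate.

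The genes described here are the nuclear genes of this complex, taken as all symbols that begin with Ndufa, Ndufb, Ndufc, Ndufs or Ndufv. The array annotation gave 44 such genes a probe set of their own, out of 18193 genes with at least 1 probe set of a single symbol. They comprise 36 genes counted as structural subunits and the 8 assembly factor genes Ndufaf1 to Ndufaf8. By their symbols the 36 include Ndufa4 and Ndufa4l2, which are placed outside complex I, and Ndufa4 is among the 34 that were tested. Where a gene had several probe sets, the brightest by its mean over all arrays was used, and 88 probe sets stood for the 44 genes. The genes Ndufs6 and Ndufa11, which share their probe sets with near copies, were not analysed here as single genes.

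Total RNA came from mouse oocytes at the germinal vesicle (GV) stage, in which the nucleus of the immature oocyte is still intact. The first group was 4 samples of untreated GV oocytes. The second was 4 samples of GV oocytes kept in culture with milrinone for 48 h. Milrinone inhibits the phosphodiesterase PDE3 and so holds oocytes in meiotic arrest. The labels give neither strain nor age, nor a group cultured without the drug, so drug, culture and time cannot be told apart. Each array received 15 µg of labelled cRNA, so a level is relative to the other RNA of its sample. The labels do not say whether replicates were separate collections, so p-values here reflect only how far these samples vary, and that variation may be technical.

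The values are intensities on a linear scale, and cells that the authors left empty were kept empty. A probe set is called listed where it has a value. Between 18605 and 23269 probe sets were listed per array, and 41 of the 44 complex I genes were listed on all 8. All 13 oocyte markers examined, such as Gdf9 and Zp3, were listed on every array. Untreated 1 stood apart: its correlation with each other array had a median of 0.930, where the remaining arrays had 0.966 to 0.980. On that array the summed intensity of 22 markers of granulosa, cumulus and theca cells was 74994. It was 16913 to 19773 for untreated 2 to 4, and 1433 to 2555 for milrinone 1 to 4. It listed 19 of these 22 genes, against 14 to 18 and 6 to 12. Markers of blood, stroma and endothelium summed to 9160 on untreated 1, to between 1406 and 2856 on untreated 2 to 4, and to between 624 and 784 with milrinone, over 13 genes. The steroidogenic markers Cyp11a1, Cyp17a1 and Star were among 6 genes of the first list that had values on untreated arrays alone, and Amh had none anywhere. The Actb control probe sets, which report on RNA integrity, had a 3'/5' ratio of 6.87 to 13.1 (untreated) and 11.6 to 20.4 (milrinone). Counts and medians of the gene groups are therefore also given without untreated 1, as are the differences of genes that this array moved clearly. In such bulk samples fewer cells of a type and less RNA per cell cannot be told apart.

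Complex I genes differed little between untreated and milrinone-cultured oocytes, beside the spread between arrays. Of the 41 genes that could be tested, 0 passed limma's test at an adjusted p under 0.05, where 19 of all 16288 probe sets tested (0.117%) did. At an unadjusted p under 0.05 there was 1 gene, Ndufaf6, against 9.63% of all probe sets. Log2 differences, milrinone minus untreated, ran from -0.31 for Ndufc1 to 0.33 for Ndufaf6, with a median of 0.01 and a median SE of 0.15. For 40 of the 41 genes the 95% interval of the difference lay wholly inside a 2-fold change in either direction, Ndufc1 being the exception. The same held for 14718 of all 16288 probe sets tested, so narrow intervals were common on the whole array. Without untreated 1 there were again 0 genes that passed, and 3 had an unadjusted p under 0.05 (Ndufv2, Ndufb2 and Ndufaf6), 7.32% against 8.24% of all probe sets. The split between directions moved more: 32 genes were higher and 9 lower without that array (78.0% higher, against 55.3% of all probe sets), where all arrays gave 23 and 18 (56.1%, against 62.0%). The sign of the difference turned for 13 of the 41 genes. Differences are on the scale log2(intensity + 16), which slightly understates those of dim probe sets.

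**Figure D1:**
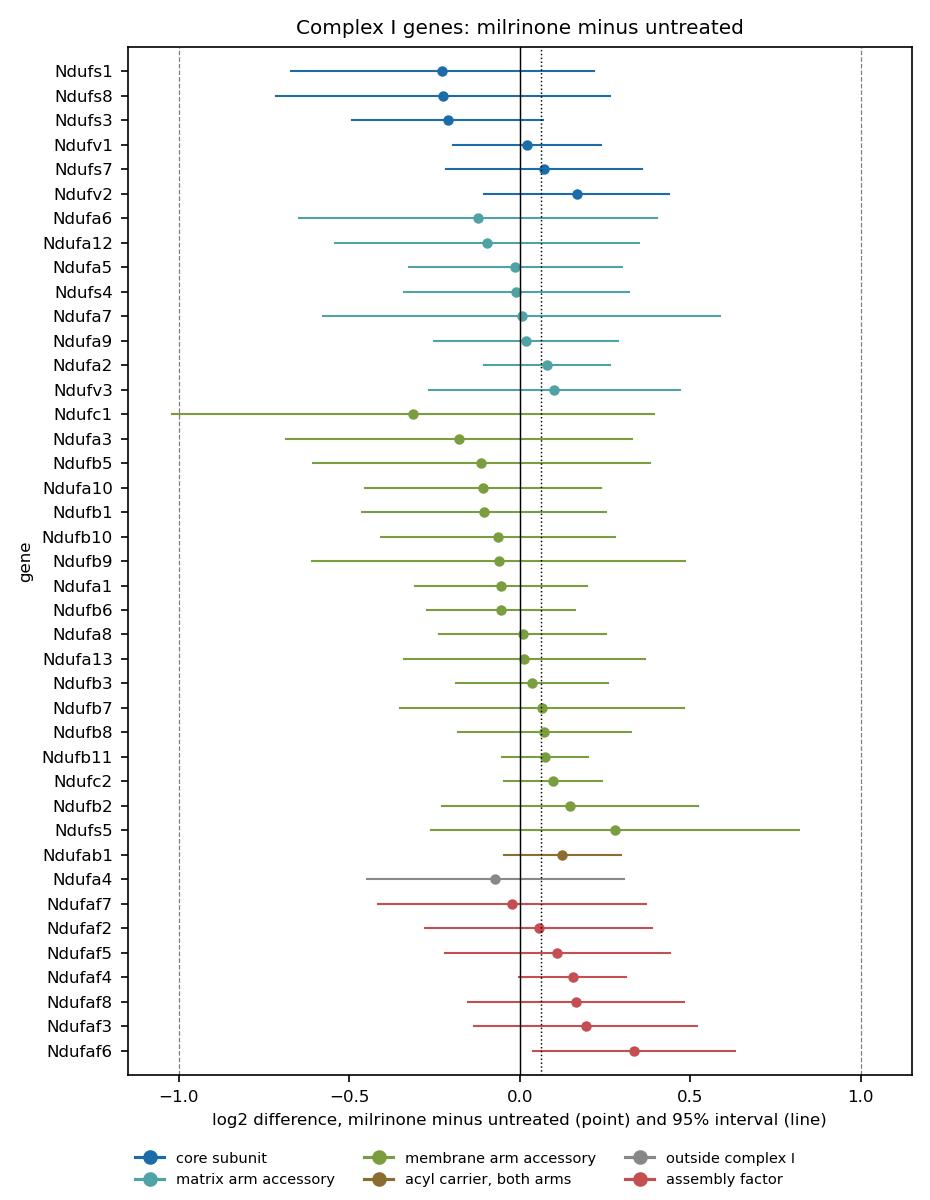
Log2 difference between milrinone and untreated samples (horizontal axis, log2 units) for each of the 41 tested complex I genes (vertical axis), coloured by role. Points are differences and lines 95% intervals from limma; the dotted line marks the median of all tested probe sets, 0.06, and the dashed lines a 2-fold change. Ndufaf6 is the gene whose whole interval lies above 0.

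Groups of values that do not overlap were about as common as over the whole array. In 2 of the 41 genes, Ndufab1 and Ndufaf6, all milrinone arrays lay above all untreated arrays, against 5.06% of all probe sets tested. In 0 of the 41 did all milrinone arrays lie below, against 2.74%. With all arrays both shares are near the background. Without untreated 1 the milrinone arrays lay above the remaining untreated arrays in 6 of the 41 genes (14.6%, against 6.26% of all probe sets), with Ndufv2, Ndufb2, Ndufa7 and Ndufa13 added, and below them in 0 (against 3.99%). The count thus rests on whether that array is included.

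Many nuclear genes of respiration are known targets of the transcription factor NRF1, so the promoters of the members were searched for the 8 letters at the core of its site. RefSeq windows of 250 bases before to 50 after the start, on GRCm38.p6, matched 39 of the 44 members. The letters GCATGCGC, on either strand, were in the windows of 4 members (10.3%), Ndufa6, Ndufa8, Ndufaf4 and Ndufaf5, and of 3.05% of all 27025 genes with a window. The windows are shown for the 3 members in which the match lies before the start, with the match in capitals, 5' to 3' on the strand of the gene.
Ndufa6, chr15:82354343-82354398, minus strand: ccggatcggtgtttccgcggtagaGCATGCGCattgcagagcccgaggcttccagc
Ndufa8, chr2:36049339-36049370, minus strand: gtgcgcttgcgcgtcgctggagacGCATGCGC
Ndufaf4, chr4:24897948-24898003, plus strand: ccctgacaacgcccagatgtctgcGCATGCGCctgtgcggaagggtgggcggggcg

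The matches begin 83, 8 and 111 bases before the start of these genes, and in Ndufaf4 a match on the other strand overlaps the one shown. The 4 members with the letters had differences from -0.12 to 0.16 with a median of 0.06, against a median of 0.01 in a range of -0.31 to 0.28 for 33 tested members without them. A second search, for the ETS factor letters CCGGAAGT on either strand, found 1 member, Ndufs3 (2.56%), against 4.31% of all genes. A match is a description of the letters and not a measured binding site.

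The core subunits of the matrix arm carry the redox chemistry, and 6 of them could be followed. Their median difference was -0.10, with 3 higher and 3 lower, and 0 passed (limma, adjusted p from 0.571 to 0.949). Without untreated 1 the median was 0.04, with 4 higher and 2 lower. Ndufv1 encodes the subunit that binds NADH and the flavin FMN. It had intensities of 3606, 3212, 3205 and 3458 on untreated 1 to 4 and of 3804, 3436, 3459 and 3010 on milrinone 1 to 4. The ranges overlapped, and the difference was 0.02 (95% interval -0.20 to 0.24), with -0.11 after quantile normalization. That normalization also moved the median of all probe sets, from 0.06 to -0.13, so single-gene values under it include this shift. Ndufv2, which encodes an iron-sulfur subunit beside it, had 6269, 4607, 4809 and 4118 in untreated and 5962, 5397, 5542 and 5099 in milrinone samples. Only untreated 1 reached above the milrinone values. With all arrays the difference of Ndufv2 was 0.17 (-0.11 to 0.44), and without untreated 1 it was 0.29 (0.10 to 0.47, limma adjusted p = 0.415), with no overlap between the groups.

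Ndufs1, the largest iron-sulfur subunit of the matrix arm, had 1183, 857, 744 and 570 in untreated and 714, 711, 657 and 679 in milrinone samples. The milrinone arrays lay close together inside the untreated range, and the difference was -0.23 (-0.67 to 0.22), or -0.05 without untreated 1. Ndufs8, whose product holds a pair of iron-sulfur clusters on the path to ubiquinone, had 6532, 3356, 3190 and 3313 in untreated and 3960, 3378, 3457 and 2677 in milrinone samples. Untreated 1 was almost 2 times as high as the mean of the other untreated arrays, a ratio of 1.99. The difference of -0.23 for Ndufs8 (-0.71 to 0.26) became 0.02 (-0.26 to 0.30) without that array. All 5 tested probe sets of Ndufs8 were higher on untreated 1, by 0.75 to 0.99 on the log2 scale.

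Ndufs3 and Ndufs7 encode subunits of the module that binds ubiquinone, and Ndufs7 carries the last iron-sulfur cluster of the chain. Ndufs3 had 3878, 2941, 2933 and 3767 in untreated and 3062, 3215, 2701 and 2629 in milrinone samples. Untreated 1 and 4 were its highest arrays, and the difference was -0.21 (-0.49 to 0.07), or -0.14 without untreated 1. Ndufs7 had 4753, 3632, 3775 and 3843 in untreated and 5161, 4086, 4106 and 3534 in milrinone samples, a difference of 0.07 (-0.22 to 0.36), or 0.16 without untreated 1. Its dimmer probe set differed by -0.12, so its probe sets disagreed in sign.

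**Figure D2:**
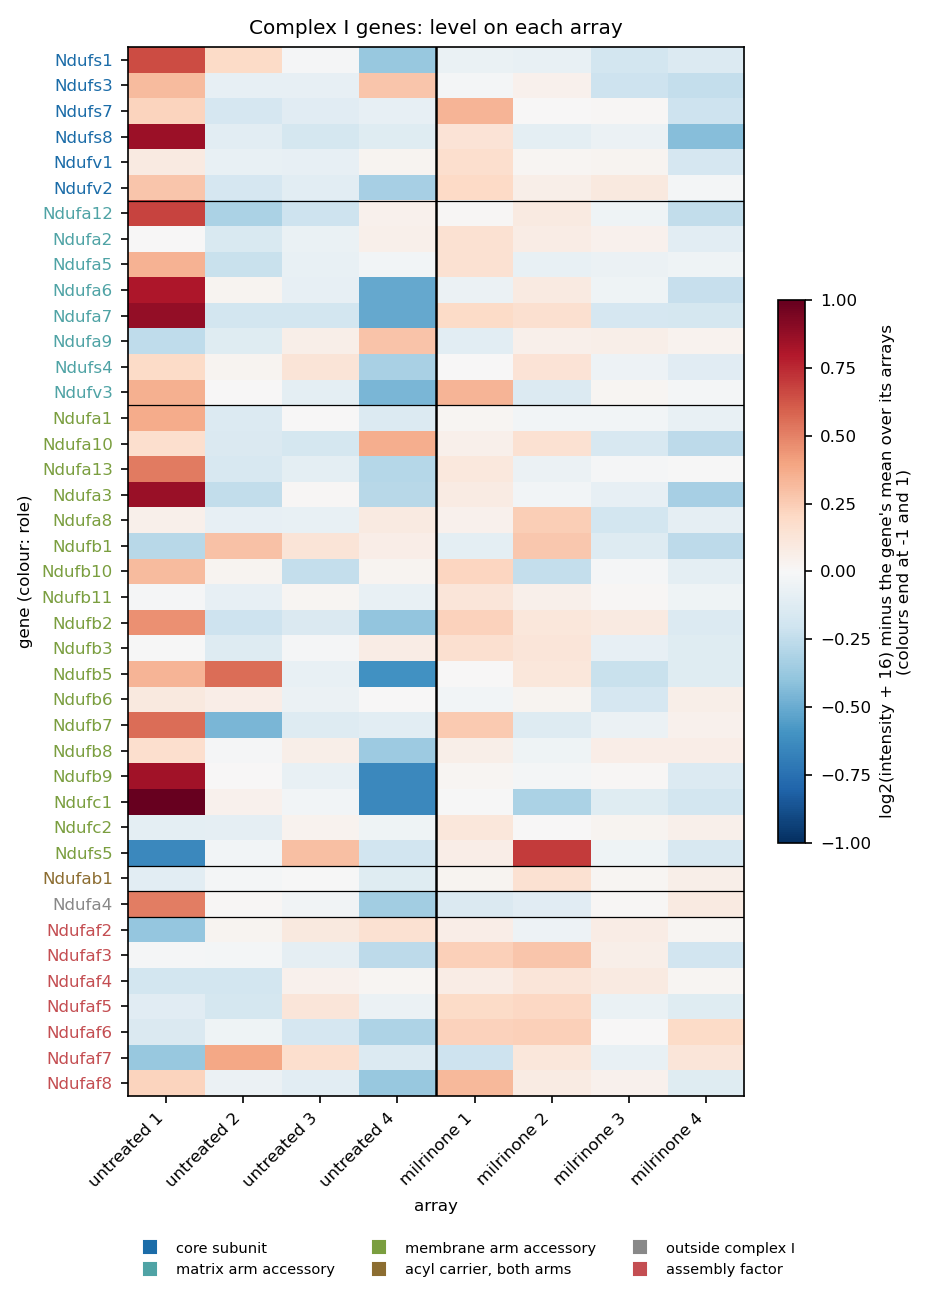
Level of each tested complex I gene (rows, coloured by role) on each array (columns), as log2(intensity + 16) minus the mean of that gene over the 8 arrays; red is above and blue below that mean. The first column, untreated 1, is the reddest for the structural subunits: 21 of these 34 genes had their highest value there.

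The accessory subunits of the matrix arm support and stabilise the core. All 8 on the array could be tested, with a median of -0.0024 in a range of -0.12 to 0.10, 4 higher and 4 lower, and 0 passing (limma, adjusted p of at least 0.739). Without untreated 1 the median was 0.11, with 7 higher and 1 lower. The lowest was Ndufa6, with 2592, 1499, 1384 and 1027 in untreated and 1413, 1562, 1426 and 1249 in milrinone samples. Its difference of -0.12 (-0.65 to 0.40) turned to 0.13 without untreated 1, which was 1.99 times the mean of the other untreated arrays. Ndufa7 had 2403, 1142, 1142 and 908 in untreated and 1486, 1457, 1160 and 1153 in milrinone samples. Its difference was 0.0053 (-0.58 to 0.59) with all arrays and 0.30 (-0.04 to 0.63) without untreated 1, where every milrinone array exceeded the untreated ones. The highest were Ndufv3, a small subunit next to the NADH site, at 0.10 (-0.27 to 0.47), or 0.24 without untreated 1, and Ndufa2, at 0.08 (-0.10 to 0.26). Ndufa2 varied little, with 5085 to 5843 in untreated and 5235 to 6274 in milrinone samples. Under quantile normalization Ndufv3 gave -0.0045 and Ndufa2 -0.0039.

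Ndufs4, whose loss in mice is a model of the mitochondrial encephalopathy Leigh syndrome, differed by -0.01 (-0.34 to 0.32), or 0.05 without untreated 1. It had 904, 807, 866 and 628 in untreated and 793, 873, 762 and 731 in milrinone samples with its brightest probe set. The dimmer probe sets of Ndufs4 differed by 0.13 and 0.41, so they disagreed with the brightest in sign. Ndufa9, at the junction of both arms, had 2790, 3063, 3473 and 4074 in untreated and 3094, 3453, 3480 and 3420 in milrinone samples, a difference of 0.02 (-0.25 to 0.29), or -0.06 without untreated 1. It was 1 of 5 structural subunits, with Ndufb1, Ndufs5, Ndufc2 and Ndufab1, that were lower on untreated 1 than on the mean of the other untreated arrays.

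The accessory subunits of the membrane arm are the largest group of the list. Of 19 on the array, 18 could be tested, with a median of -0.02, 9 higher and 9 lower, and 0 passing (limma, adjusted p of at least 0.600). Without untreated 1 the median was 0.07, with 14 higher and 4 lower. The remaining one, Ndufb4, was listed on untreated 2 alone, at 16.8, with its only single-symbol probe set. The largest negative difference was that of Ndufc1, with 4313, 1860, 1773 and 1151 in untreated and 1796, 1446, 1657 and 1590 in milrinone samples. Untreated 1 was 2.70 times the mean of the other untreated arrays, and untreated 4 was the lowest of all 8. The difference of -0.31 for Ndufc1 (SE 0.32, -1.02 to 0.39, limma adjusted p = 0.734) was 0.05 (-0.34 to 0.44) without untreated 1. A second probe set of Ndufc1 gave -0.32 with all arrays.

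Ndufa3 behaved in the same way on its brighter probe sets. It had 4398, 2035, 2440 and 1995 in untreated and 2558, 2364, 2285 and 1914 in milrinone samples, a difference of -0.18 (-0.69 to 0.33), or 0.08 without untreated 1. Its dimmest probe set, at 45.5 to 73.9 in untreated and 73.3 to 98.0 in milrinone samples, differed by 0.48 (0.13 to 0.83, limma adjusted p = 0.460), the widest disagreement between probe sets of 1 gene. Ndufb5 differed by -0.11, Ndufa10 by -0.11 and Ndufb1 by -0.10, all with intervals that span 0. Without untreated 1 these became -0.02, -0.07 and -0.21. Ndufb5 was spread widely among the untreated arrays, from 1188 on untreated 4 to 2683 on untreated 2, and had 1556 to 1960 in milrinone samples. Ndufb1 was lowest on untreated 1, at 1118. Its other untreated values were 1423 to 1668, and its milrinone values 1134 to 1645.

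The largest positive difference of a structural subunit was that of Ndufs5, a small cysteine-rich protein of the intermembrane side. It had 236, 372, 471 and 330 in untreated and 397, 624, 368 and 337 in milrinone samples. Untreated 1 was its lowest array and milrinone 2 its highest, and the difference of 0.28 (-0.26 to 0.82) fell to 0.11 without untreated 1 and to -0.03 with array weights. Ndufb2 had 4687, 2947, 3075 and 2593 in untreated and 3993, 3696, 3626 and 3100 in milrinone samples. Its difference was 0.15 (-0.23 to 0.52), and 0.32 (0.08 to 0.57, limma adjusted p = 0.509) without untreated 1, with no overlap between the groups.

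Ndufc2 and Ndufb11 were among the steadiest genes. Ndufc2 had 6861, 6872, 7507 and 7095 in untreated and 7907, 7362, 7454 and 7593 in milrinone samples, a difference of 0.10 (-0.05 to 0.24). Its 2 dimmer tested probe sets lay higher on every milrinone array than on any untreated array and differed by 0.27 (0.10 to 0.44, limma adjusted p = 0.451) and 0.20 (-0.06 to 0.46). The brighter of these had 4645, 4785, 4330 and 4404 against 5758, 5770, 5262 and 5137. Ndufb11, an X-linked gene, had 11212 to 11987 in untreated and 11506 to 12912 in milrinone samples, a difference of 0.07 (-0.05 to 0.20), the narrowest interval of the members.

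Several genes on the list have work outside complex I. Ndufab1 encodes the mitochondrial acyl carrier protein, which sits in both arms and also serves mitochondrial fatty acid synthesis. It had 4057, 4292, 4347 and 4011 in untreated and 4433, 4849, 4411 and 4534 in milrinone samples. All milrinone arrays lay above all untreated arrays, but the difference was small, at 0.12 (-0.05 to 0.30, limma adjusted p = 0.579). After quantile normalization it was 0.0083, where the median of all probe sets was -0.13. Ndufa4, once counted as a complex I subunit and now placed in cytochrome c oxidase, had 2495, 1752, 1703 and 1369 in untreated and 1579, 1614, 1758 and 1859 in milrinone samples, a difference of -0.07 (-0.45 to 0.30), or 0.09 without untreated 1. Ndufa4l2, a relative of Ndufa4 known for its induction by hypoxia, was listed on milrinone 3 alone, at 139.

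**Figure D3:**
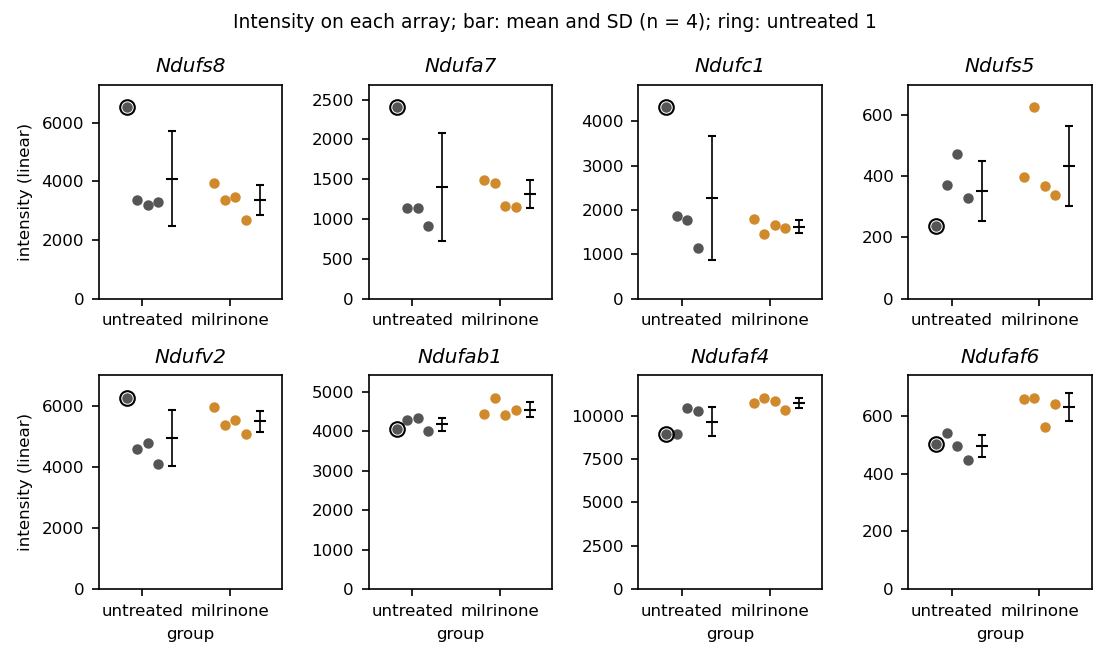
Intensity (vertical axis, linear scale from 0) on each array for 8 complex I genes in untreated (grey) and milrinone (orange) samples, with mean and SD (n = 4) at the right of each group; the ring marks untreated 1. Ndufs8, Ndufa7 and Ndufc1 are highest on untreated 1 and Ndufs5 is lowest there, while for Ndufab1 and Ndufaf6 the milrinone points all lie above the untreated ones.

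The assembly factors lay slightly higher in milrinone samples, and none passed the test. Of 7 that could be tested, 6 were higher and 1 was lower, with a median difference of 0.16 in a range of -0.02 to 0.33 and adjusted p of at least 0.495 (limma). Over all tested probe sets 10099 of 16288 were higher and the median was 0.06. Without untreated 1, 5 assembly factors were higher and 2 lower (Ndufaf2 and Ndufaf7), with a median of 0.12. Of all probe sets 9012 were then higher, with a median of 0.03. After quantile normalization 3 assembly factors were higher and 4 lower, with a median of -0.03, while the median of all probe sets moved to -0.13. Relative to all probe sets, the assembly factor median was thus 0.09 with the deposited scaling and 0.10 after quantile normalization.

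Ndufaf6, which is needed for an early step of assembly, showed the largest difference of all members. It had 503, 541, 494 and 448 in untreated and 660, 662, 560 and 641 in milrinone samples. Every milrinone value was above every untreated value, with means of 497 ± 37.9 (SD, n = 4) and 630 ± 48.1 (SD, n = 4). The difference was 0.33 (SE 0.13, 0.04 to 0.63, limma unadjusted p = 0.0304, adjusted p = 0.495), 0.34 without untreated 1 and 0.10 after quantile normalization. Its adjusted p ran from 0.373 to 0.814 over the alternatives tried.

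Ndufaf3 and Ndufaf4 work as a pair on the module that will bind ubiquinone. Ndufaf4 had 8921, 8929, 10453 and 10269 in untreated and 10704, 11017, 10820 and 10309 in milrinone samples. The groups overlapped by a little, and the difference was 0.16 (-0.0020 to 0.31, limma adjusted p = 0.514), with 0.14 from its dimmer probe set. Ndufaf3 had 732, 726, 690 and 612 in untreated and 871, 896, 770 and 645 in milrinone samples. Its difference was 0.19 (-0.13 to 0.52), and -0.03 after quantile normalization.

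Ndufaf5 hydroxylates an arginine of Ndufs7, and Ndufaf8 is its partner. Ndufaf8 had 3134, 2580, 2495 and 2060 in untreated and 3371, 2856, 2768 and 2476 in milrinone samples, a difference of 0.17 (-0.15 to 0.48), or 0.27 without untreated 1. Ndufaf5 had 358, 342, 424 and 372 in untreated and 446, 451, 371 and 356 in milrinone samples, a difference of 0.11 (-0.22 to 0.44), with milrinone 1 and 2 above the rest. Quantile normalization turned it to -0.13.

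Ndufaf7 is a methyltransferase, and Ndufaf2 acts late, when the NADH-binding module joins. Ndufaf7 had 765, 1310, 1124 and 907 in untreated and 863, 1082, 947 and 1086 in milrinone samples, a difference of -0.02 (-0.42 to 0.37), or -0.15 without untreated 1. Ndufaf2 had 559, 750, 788 and 821 in untreated and 773, 708, 776 and 746 in milrinone samples, a difference of 0.055 (-0.28 to 0.39), or -0.065 without untreated 1. Both were lowest on untreated 1. Ndufaf1, a chaperone of membrane arm intermediates, was not tested: it was listed on untreated 1 to 3 at 159, 44.9 and 52.9 and on milrinone 3 and 4 at 42.1 and 73.1.

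Structural subunits and assembly factors differed most on untreated 1. The 34 structural subunits had a median difference of -0.0024 between milrinone and untreated samples, with 17 higher and 17 lower, so that their median was below that of the assembly factors by 0.16. Without untreated 1 the structural median was 0.08, with 27 higher and 7 lower, the assembly factor median was 0.12, and the gap between them was -0.04. The structural median minus the assembly factor median was also taken on each array. It had an SD of 0.18 between arrays, pooled over both groups with untreated 1 included, so it is the SD of neither group alone. On untreated 1 the structural median stood at 0.31 and the assembly factor median at -0.15. On milrinone 1 to 4 the structural medians were 0.06, 0.04, -0.04 and -0.11, and those of the assembly factors 0.19, 0.12, 0.04 and 0.02. The pooled SD describes single arrays and is not an error of the gap between groups, which was not tested. After quantile normalization 6 structural subunits were higher and 28 lower, and with each array centred on its median 12 were higher and 22 lower. Relative to the median of all probe sets, the structural median was -0.07 with the deposited scaling, -0.03 after quantile normalization and 0.06 without untreated 1.

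**Figure D4:**
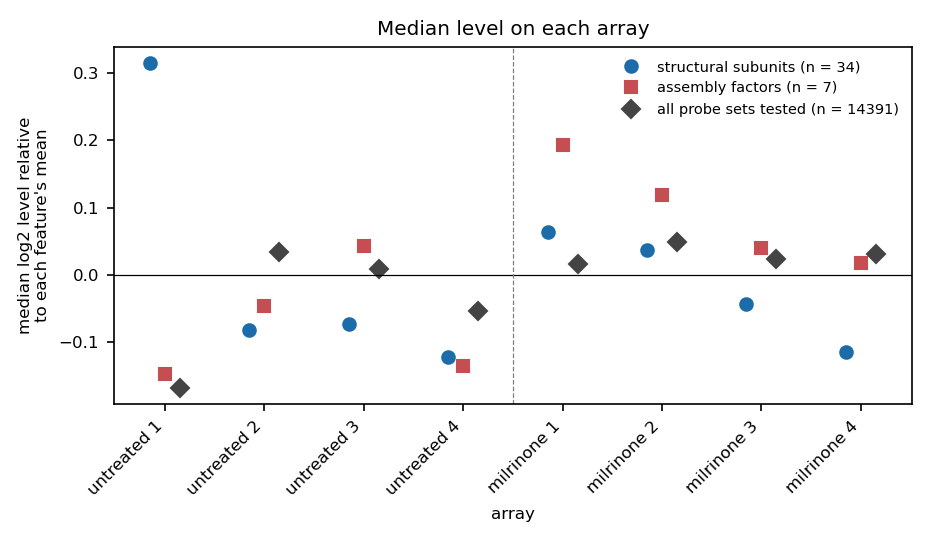
Median log2 level on each array, relative to the mean of each feature over the arrays, for 34 structural subunit genes, 7 assembly factor genes and all 14391 probe sets listed on every array. The structural subunits stand at 0.31 on untreated 1, where the assembly factors stand at -0.15 and all probe sets at -0.17; on the other 7 arrays the structural subunits lie between -0.12 and 0.06.

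On untreated 1 the structural subunits were raised by a median of 0.38 on the log2 scale over the other untreated arrays, where the assembly factors had -0.07 and all tested probe sets had -0.15. Of the 34 structural subunits, 21 had their highest value of all 8 arrays on untreated 1, a share of 61.8%, against 15.9% of all probe sets listed on every array. Among the 7 assembly factors it was 0. The largest excesses were 1.46 for Ndufc1, 1.17 for Ndufa7, 1.08 for Ndufb9 and 1.03 for Ndufa3. Ndufs5 at -0.68, Ndufb1 at -0.44 and Ndufa9 at -0.33 went the other way. Untreated 4 was the lowest array for 15 of the 34 structural subunits, a share of 44.1%, against 22.3% of all probe sets. The markers of granulosa, cumulus and theca cells were also highest on untreated 1, as given above. On untreated 4 their summed intensity was 19773, not below that of untreated 2 and 3, but 14 of them were listed, against 18 on each of those arrays. Markers of blood, stroma and endothelium summed to 1406 on untreated 4, the lowest of the untreated arrays. The part of these other cell types in the levels was not tested.

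**Figure D5:**
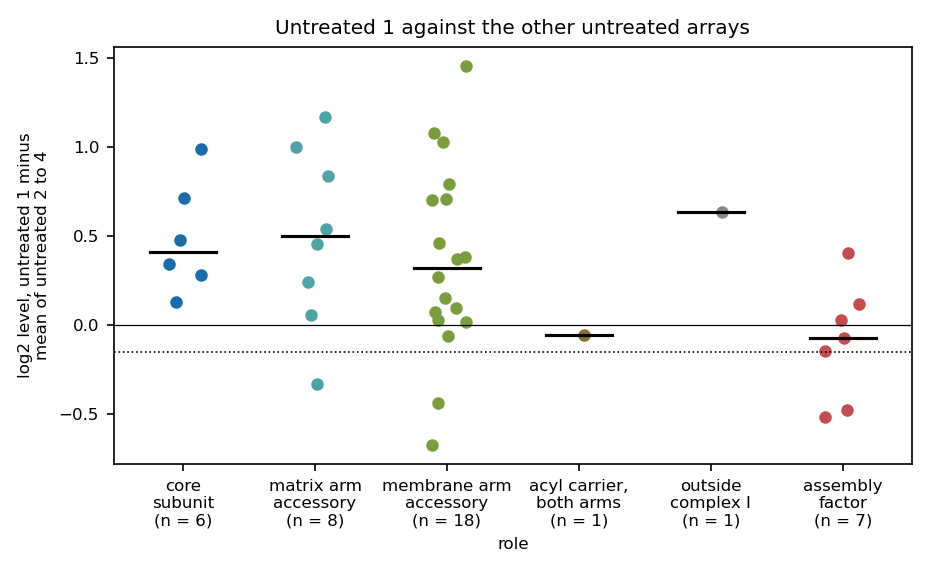
Log2 level on untreated 1 minus the mean of untreated 2 to 4 (vertical axis) for each tested complex I gene, by role (horizontal axis); bars are medians and the dotted line marks the median of all tested probe sets, -0.15. The medians are 0.41 for core subunits, 0.50 and 0.32 for the accessory subunits of the matrix and membrane arms, and -0.07 for assembly factors.

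The spread of the members was wider among the untreated arrays. The median SD of a complex I gene on the log2 scale was 0.24 in untreated and 0.14 in milrinone samples, and 30 of the 41 genes varied more in untreated samples. Without untreated 1 the untreated SD was 0.15. All tested probe sets showed the same order, with 0.27 and 0.16, and 0.20 without untreated 1. Of these 16288 probe sets 12376 varied more in untreated samples, so the wider untreated spread was not particular to the members.

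Probe sets of 1 gene did not always agree. Of 20 members with several tested probe sets, 13 had differences of the same sign throughout, and the median spread between the highest and lowest was 0.12. The differences of the 41 genes had quartiles of -0.07 and 0.10, so this spread was not small beside them. The 7 with mixed signs included Ndufa7, Ndufb6, Ndufb7 and Ndufv1. Over all 74 tested probe sets of the members 0 passed limma's test. An unadjusted p under 0.05 was found for 3 (4.05%, against 9.63% of all probe sets tested). On all milrinone arrays 5 lay higher (6.76%, against 5.06%), so neither share was far above that of the whole array. By their identifiers 4 of the 44 chosen probe sets can bind related transcripts (Ndufa12, Ndufa3, Ndufs8 and Ndufv1) and 5 are shared by similar transcripts, so their levels may include other messages.

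Assembly factors of complex I with other names were followed for comparison. Of 11 such genes, 10 were on the array and 8 could be tested, with a median of 0.03, 4 higher and 4 lower, the same split as without untreated 1. None passed (limma, adjusted p of at least 0.514, and 0 at an unadjusted p under 0.05). Acad9, an acyl-CoA dehydrogenase relative that joins Ndufaf1 in an assembly complex, had 463, 389, 424 and 530 in untreated and 351, 227, 387 and 386 in milrinone samples. Its milrinone values all lay below the untreated ones, with a difference of -0.42 (-0.85 to 0.01). Tmem186 differed by 0.17, Timmdc1 by -0.15 and Ecsit by 0.14. The 7 subunits encoded by mitochondrial DNA had no probe set with a symbol of their own.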

How the data were processed

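Affymetrix probe set values of 8 single-colour arrays were used as deposited. The authors deposited 1 linear intensity per array for 45101 probe sets. Their software, their scaling and why some cells are empty: not given in the sources used here. Per the labels, biotinylated cRNA was hybridised. Probe sets were named from the platform annotation (34945 with 1 symbol, 932 with several, 9160 with none, controls apart), and all 44 member symbols match the RefSeq table.

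Intensities were analysed as log2(intensity + 16). Non-control probe sets with at most 1 empty cell per group entered a two-sided limma test (version 3.58.1, R 4.3.3; moderated with an intensity trend). Benjamini-Hochberg adjustment ran over all 16288, with a threshold of 0.05. The fit was tried on simulated data with independent noise of the same spread in both groups. Such data do not copy the wider untreated spread or the deviation of untreated 1, so the trial does not cover them. The number of arrays limits the precision. Role groups are described by counts and medians, with no test. Named genes are all core subunits and assembly factors, the 6 highest and 6 lowest accessory subunits by difference, Ndufab1, Ndufa4, Ndufa4l2 and untested members; Ndufs4, Ndufa7, Ndufa9, Ndufb9 and members named only in a count were added after their values were seen. Members and lists were chosen with earlier results of these data known. Promoter windows of chromosome 18 were not used here. Alternatives changed the pseudocount, filter, scaling, trend, weights, block, probe set and left-out array. Plots were made with matplotlib 3.10.9 under Python 3.11.15.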

Additional observations from a re-analysis of the deposited data

Results flagged for a closer look

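A sample lay far from the other 3 of its group in 2 of 58 groups of 4 arrays examined, where chance alone gives about 1 in 20, or 2.9. The count was thus not above that number. In both the sample was untreated 1, and they are not separate, since Ndufs8 is 1 of the structural subunits. For Ndufs8 its gap to the next array was 0.930 of the range of the untreated group, and for the median of the structural subunits it was 0.889. The values on each array are those given for Ndufs8 and for the structural subunits. The part of the other cell types whose markers were highest on that array was not tested.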

How the results depend on the processing

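No complex I gene was called under any of the 19 alternatives, and the number with an unadjusted p under 0.05 stayed between 0 and 3. The count of called probe sets over the whole array was 19, and was 106 with array weights, 12 over probe sets listed on all 8 arrays, and 8 to 69 when 1 array was left out, lowest without milrinone 3 and highest without untreated 1. The assembly factor median of 0.16 became -0.028 after quantile normalization, while the median of all probe sets moved from 0.06 to -0.13. Quantile normalization also turned the sign for Ndufs7 (-0.034), Ndufv1 (-0.11), Ndufa2 (-0.0039), Ndufv3 (-0.0045), Ndufaf2 (-0.17), Ndufaf3 (-0.028) and Ndufaf5 (-0.13). Array weights turned Ndufa10 (0.014), Ndufs5 (-0.032) and Ndufaf2 (-0.012), centring on the median turned Ndufv1 (-0.0083), and the dimmest tested probe set turned 7 members: Ndufs7 (-0.12), Ndufv1 (-0.13), Ndufa3 (0.48), Ndufs4 (0.41), Ndufb6 (0.18), Ndufb7 (-0.05) and Ndufa7 (-0.04). Leaving out 1 array gave -0.30 to 0.078 for Ndufa3, -0.20 to 0.087 for Ndufa4, -0.31 to 0.13 for Ndufa6, -0.065 to 0.12 for Ndufaf2, -0.15 to 0.10 for Ndufaf7, -0.33 to 0.055 for Ndufb5, -0.58 to 0.051 for Ndufc1, -0.029 to 0.16 for Ndufs7, -0.32 to 0.022 for Ndufs8, -0.031 to 0.081 for Ndufv1 and -0.034 to 0.24 for Ndufv3. The cause of these changes was not tested. For the 27 genes named by the rule that were tested, the other 484 values under alternatives kept their sign and stayed above the threshold. Part of these signs could not turn. The filters, trend and block leave the difference of a gene listed on all 8 arrays as it was. The dimmest probe set is the brightest where only 1 was tested. The count of 484 is therefore no measure of stability. The remaining tested members were followed only without untreated 1, where 7 of them turned sign (Ndufa12, Ndufa5, Ndufa1, Ndufb10, Ndufb9 and, as given, Ndufa9 and Ndufs4), and with the dimmest probe set.

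Replicate numbers are shared between the groups. Same-numbered arrays did not deviate together (correlations of their deviations 0.03, -0.20, -0.02 and -0.27), so the numbers were not taken as pairs. With the replicate block 13 probe sets were called, and 0 complex I genes.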

Other observations

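Probe sets that name a complex I gene beside another symbol were left out of the counts. Of 10 such probe sets, 7 could be tested and 0 passed (limma). That of Ndufab1 and its pseudogene Ndufab1-ps had 4030, 3818, 4192 and 3096 in untreated and 5050, 4705, 4535 and 4351 in milrinone samples, so that every milrinone value was above every untreated one. It differed by 0.31 (95% interval 0.07 to 0.55, limma unadjusted p = 0.0171, adjusted p = 0.472). That of Ndufb2 and Adck2 was also higher on all milrinone arrays, at 139 to 186 against 115 to 126 on the 3 untreated arrays that listed it. Its difference was 0.40 (0.03 to 0.76, limma adjusted p = 0.495), and an absence of overlap is easier to reach with an empty cell. Over all probe sets tested 5.06% lay higher on all milrinone arrays. The brighter of the probe sets of Ndufb4 with its near copies Ndufb4b and Ndufb4c differed by 0.11 (-0.05 to 0.27), and that of Ndufs6 with Ndufs6b by 0.08 (-0.34 to 0.50).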
